A study of Mus musculus with 3 samples.

Results

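Very GC-rich promoter probes are the 9117 probes of a mouse promoter array whose own sequence is at least 65% G plus C. The rule uses their sequence and no measured value, and was applied to 228196 autosomal probes outside the controls (237203 on all chromosomes). They had a median G+C content of 71.1% and a median of 5 CpG dinucleotides, and 9045 of them were 45 bases long. Of the 9117, 8997 carried a gene name, and they lay in 5361 of the 15829 autosomal genes on the array. Most of these genes had few of them: 2995 genes had 1, 1472 had 2, 625 had 3, 196 had 4, 47 had 5, 18 had 6 and 8 had 7.

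The cells were C2C12, a line of mouse myoblasts, arrested in G0 in suspension in 2% methylcellulose. Chromatin was fixed with 1% formaldehyde, quenched in 0.125 M glycine and precipitated with a PRDM2 antibody (2 arrays) or an H3K9me2 antibody (1 array). The immunoprecipitated (IP) DNA was always red (Cy5) and the input green (Cy3), dyes were never swapped, and no control antibody array was used here. Nothing in the labels ties the pair of PRDM2 arrays to separate cultures. The p-values thus rest only on spread between 2 arrays, which may be technical, and precision is limited by how few arrays there are. The test used, limma, also pools that spread over all probes or genes fitted. An SD over 2 arrays printed for 1 gene is therefore not the spread behind its p-value.

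In mammals, long stretches of GC-rich DNA that keep their CpG dinucleotides form CpG islands, which cover the promoters of most housekeeping and many developmental genes and are mostly free of DNA methylation. PRDM2, also called RIZ1, is a zinc finger protein with a PR domain that methylates lysine 9 of histone H3. H3K9me2, the dimethylated form of that lysine, is a mark of silent chromatin and is in general low at active CpG island promoters.

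The sequences below show the range of the probes. The first pair comes from the genes with the highest and the lowest PRDM2 ratio over their GC-rich probes, the second pair from genes near the top and the bottom for H3K9me2, and the last pair has the most CpG and no CpG. CpG dinucleotides are in capitals, and coordinates follow the array design, for which the sources used here name no genome build.
Hnrpab probe at chr11:51449911-51449955: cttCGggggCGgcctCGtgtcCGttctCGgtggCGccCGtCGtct
Actl6a probe at chr3:32899989-32900033: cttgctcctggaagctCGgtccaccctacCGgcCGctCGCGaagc
Usp10 probe at chr8:122796905-122796949: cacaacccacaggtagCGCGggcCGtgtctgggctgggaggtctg
Crtc1 probe at chr8:73368335-73368379: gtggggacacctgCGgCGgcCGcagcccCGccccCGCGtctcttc
Gpam probe at chr19:55152716-55152760: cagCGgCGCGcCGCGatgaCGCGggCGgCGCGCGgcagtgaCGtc
Elovl1 probe at chr4:117926279-117926323: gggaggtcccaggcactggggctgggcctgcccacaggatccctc

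The value of a probe is its log2 ratio of IP over input signal, relative to the median probe of its array, so 0 is the median probe and not equal IP and input. The Hnrpab probe, with 8 CpG, stood at 6.11 (array 1) and 5.69 (array 2) for PRDM2 and at 3.24 for H3K9me2. The Actl6a probe, with 5 CpG, stood at 1.05 and 2.34 for PRDM2 and at 0.63 for H3K9me2. The Gpam probe, with 12 CpG, stood at 5.89 and 5.67 for PRDM2 and at 2.43 for H3K9me2, against 1.5, 2.66 and -0.13 for the CpG-free Elovl1 probe. The Gpam value went with little input: its input signal lay at -2.97, -3.75 and -3.58 log2 relative to the median probe of the 3 arrays, where the Elovl1 input lay at 1.27, 1.58 and 2.05.

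Very GC-rich probes had a far higher ratio of IP over input than other probes on all 3 arrays. Their median was 3.81 and 3.84 on PRDM2 arrays 1 and 2, against -0.07 on each for the 219079 other autosomal probes, and 1.66 on the H3K9me2 array, against -0.13. The median of GC-rich probes minus that of other probes was thus 3.88 and 3.91 for PRDM2 and 1.78 for H3K9me2. Its size depended on the processing: the PRDM2 mean of 3.90 was 1.65 with the normexp background and 1.54 with loess. The H3K9me2 value was 1.89 with normexp, there above that of PRDM2, and 0.80 with loess. On the PRDM2 arrays 99.5% and 99.9% of the GC-rich probes were above the median probe, and 93.3% were on the H3K9me2 array, against 47.6%, 47.5% and 47.7% of other probes. The GC-rich probes differed among themselves by an SD of 1.39, 1.12 and 1.01 log2 on the 3 arrays. The difference from other probes was mostly in the IP signal, whose median at GC-rich probes lay 4.30, 4.41 and 2.89 log2 above the median probe for PRDM2 array 1, PRDM2 array 2 and H3K9me2. Their median input signal lay 0.50, 0.48 and 0.85 above it. The input was bright, that is well above background by the scanner's flag, at 96.2%, 98.2% and 98.5% of GC-rich probes. The IP signal was bright at 99.6%, 99.4% and 99.3% of them, but at only 75.7%, 70.8% and 78.2% of other autosomal probes. The part of dim IP signal in the difference was not tested.

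The ratio followed G+C content over most of its range, with no step at 65% (the plot of ratio by G+C class). On PRDM2 array 1 the median was -0.33 at 35 to 40% G+C, 0.22 at 45 to 50%, 1.83 at 55 to 60%, 3.37 at 65 to 70%, 4.40 at 75 to 80% and 4.63 at 80% or more. PRDM2 array 2 followed the same order, with -0.38, 0.22, 1.92, 3.49, 4.35 and 4.58. The H3K9me2 array climbed less steeply and levelled off, with -0.82, 0.10, 1.00, 1.59, 1.77 and 1.53 in the same classes. Just outside the limit, 3020 probes of 64 to 65% G+C had medians of 2.89 and 3.07 for PRDM2 and 1.5 for H3K9me2. Just inside it, 29 probes of 65 to 66% had 3.58, 3.30 and 1.64, and 2435 probes of 66 to 67% had 3.25, 3.33 and 1.56. Below its lowest class of 35 to 40% the ratio turned up again, to -0.20, -0.23 and -0.33 at 30 to 35% G+C. Below 30% it was 0.16, 0.24 and 0.13. The median input lay at -1.39, -1.27 and -2.73 at 30 to 35% and at -2.51, -2.48 and -4.22 below 30%.

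**Figure D1:**
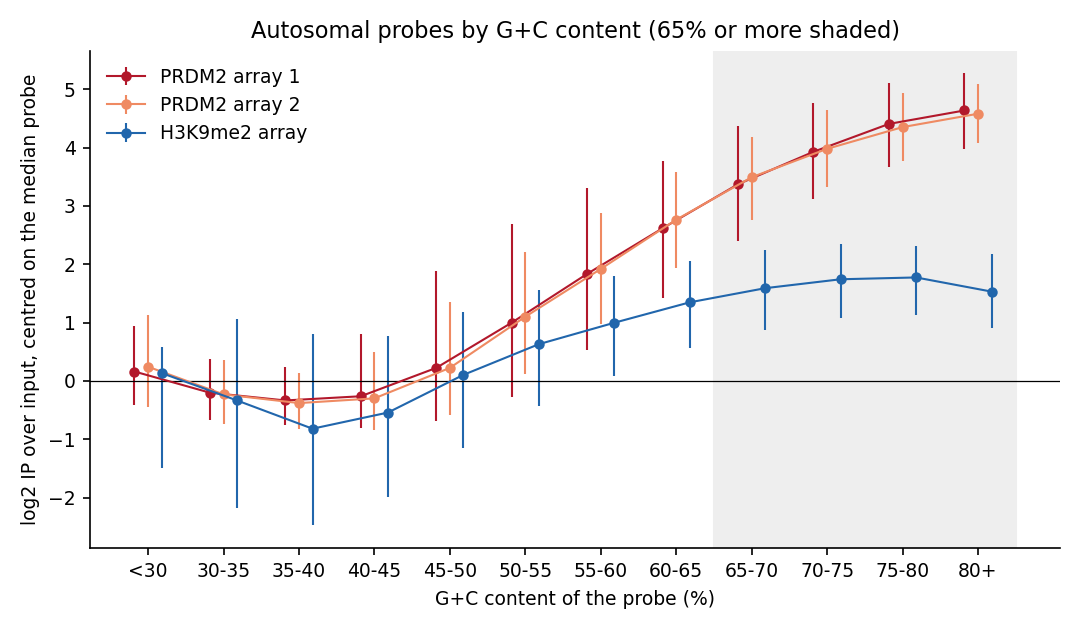
Median log2 IP over input (vertical axis, with the array's median probe at 0) of autosomal probes in classes of G+C content (horizontal axis, percent), for PRDM2 arrays 1 and 2 and the H3K9me2 array; bars span the quartiles of probes and the classes of 65% or more are shaded. The 2 PRDM2 arrays lie together and pass 4.5 at 80% or more, while the H3K9me2 array levels off at 1.77 and 1.53.

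Against the median probe, limma called 5354 of the 9103 GC-rich probes tested above it for PRDM2 at an adjusted p under 0.05 and 0 below it (8800 and 0 at an unadjusted p under 0.05). Over all 236323 probes tested, 4.98% were called above and 0.00381% below, and among the probes that were not very GC-rich 2.83% were called above. Per probe these calls depended on the processing: limma called 0 GC-rich probes above with the normexp background, the authors' value table, bright input only or the trend on G+C content removed. At an unadjusted p under 0.05 these settings had 6262, 8703, 8439 and 992 probes above and 23, 0, 0 and 1012 below.

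Within the GC-rich probes, those with more CpG had a higher PRDM2 ratio. CpG is the site of DNA methylation in mammals, and GpC, the same bases in the other order, is not. The PRDM2 median was 3.32 and 3.06 at the 46 probes with no CpG, 3.38 and 3.31 at the 674 with 2, 3.81 and 3.88 at the 1959 with 5, 4.80 and 4.71 at the 397 with 8, and 5.41 and 5.16 at the 50 with 10 or more. The H3K9me2 median in the same classes was 1.35, 1.46, 1.68, 1.82 and 1.39, so it was not highest where CpG were most frequent. Probes with 7 or more CpG (1363) minus those with at most 2 (935) gave 1.36 and 1.37 for PRDM2 and 0.47 for H3K9me2. The PRDM2 mean of 1.37 was 0.74 with normexp and 2.92 with loess, and for H3K9me2 the difference was 1.68 with loess and had the opposite sign, -0.73, with normexp.

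Neither channel's signal was higher at CpG-rich probes. From the probes with no CpG to those with 10 or more, the median input signal went down on all 3 arrays, with 2.24, 2.56 and 2.61 at no CpG and -1.32, -1.83 and -1.25 at 10 or more for PRDM2 array 1, PRDM2 array 2 and H3K9me2. The IP signal went down too, with 5.82, 6.38 and 4.67 at no CpG and 4.17, 3.39 and 0.79 at 10 or more, which for PRDM2 was a smaller drop than that of the input. Input was bright at 70% and 78.0% of the probes with 10 or more CpG on PRDM2 arrays 1 and 2, and at 97.8% of the CpG-free ones on each, and the part of dim input in the ratio was not tested. Restricted to probes of bright input on all arrays, the PRDM2 difference of many minus few CpG was 1.27.

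**Figure D2:**
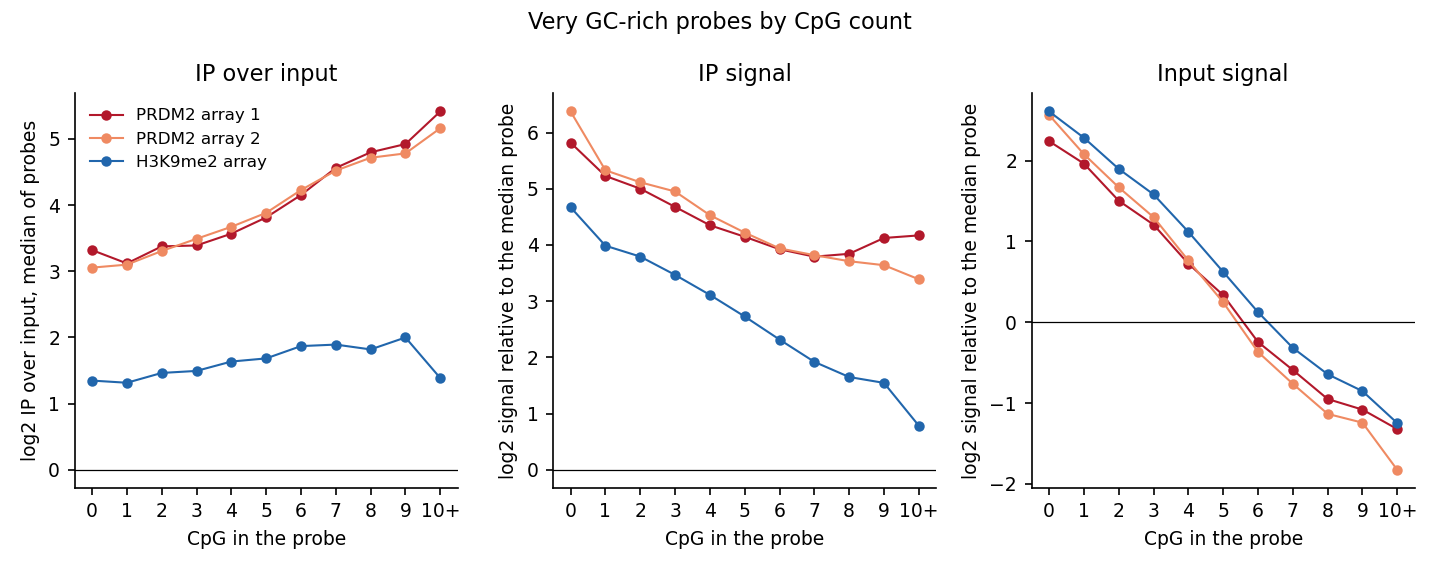
Very GC-rich probes by the number of CpG in the probe (horizontal axis); the panels show the median log2 IP over input, the median log2 IP signal and the median log2 input signal, each relative to the median probe, for the 3 arrays. The ratio for PRDM2 is highest at 10 or more CpG (5.41 and 5.16), while the input signal is lowest there (-1.32 and -1.83).

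CpG count goes with G+C content, so the contrast was also made within classes of G+C. This narrowed the gap in G+C content but did not close it. Median G+C with many against few CpG was 68.9% against 66.7%, 73.3% against 71.1% and 77.8% against 75.6% in the 3 classes. The medians were the same for many and few GpC, and the part of this gap in the differences was not tested. At 65 to 70% G+C, 193 probes with 7 or more CpG minus 747 with at most 2 gave 0.48 and 0.85 for PRDM2 and 0.36 for H3K9me2. At 70 to 75% the difference was 1.07 and 1.16 for PRDM2 and 0.68 for H3K9me2 (392 against 167 probes), and at 75% or more it was 1.34 and 0.85 for PRDM2 and 0.76 for H3K9me2, over only 21 probes with few CpG. The same contrast of GpC gave 0.05 and 0.28 for PRDM2 and -0.24 for H3K9me2 at 65 to 70%, and 0.03, 0.10 and -0.36 at 70 to 75%. At 75% or more GpC gave 1.01, 0.57 and 0.18, over only 8 probes with few GpC, and over all classes it gave 0.73, 0.80 and -0.16. Across GC-rich probes, the ratio correlated with CpG count at r = 0.297, 0.357 and 0.133 on the 3 arrays with GpC count at 0.202, 0.205 and -0.015, and with G+C content itself at 0.324, 0.351 and 0.050 (9106 to 9112 probes, which share library and base composition).

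The order of probes was partly shared between arrays, also between antibodies, and hardly at all between one probe and the next along the chromosome. Over 9092 GC-rich probes measured on all arrays, the ratio of the same probe correlated at r = 0.641 between the PRDM2 arrays, and at 0.568 and 0.471 between PRDM2 arrays 1 and 2 and the H3K9me2 array. The ratio of the same probe still differed by an SD of 1.09 between the PRDM2 arrays, and of 1.17 and 1.1 against the H3K9me2 array. The input signal of the same probe correlated at 0.964, 0.967 and 0.982 in those pairs and the IP signal at 0.857, 0.807 and 0.819. A GC-rich probe and the next one along the chromosome, not overlapping and with starts within 300 bp, correlated at only 0.088 and 0.069 for PRDM2 (2409 and 2414 pairs) and 0.017 for H3K9me2 (2408 pairs). Within 150 bp (1033 pairs) r was 0.101, 0.075 and 0.007, and at 300 to 600 bp (886 pairs) it was 0.009, 0.007 and -0.018. Their input signals hardly correlated either, at 0.060, 0.050 and 0.052 within 300 bp, nor did their CpG counts, at 0.075.

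**Figure D3:**
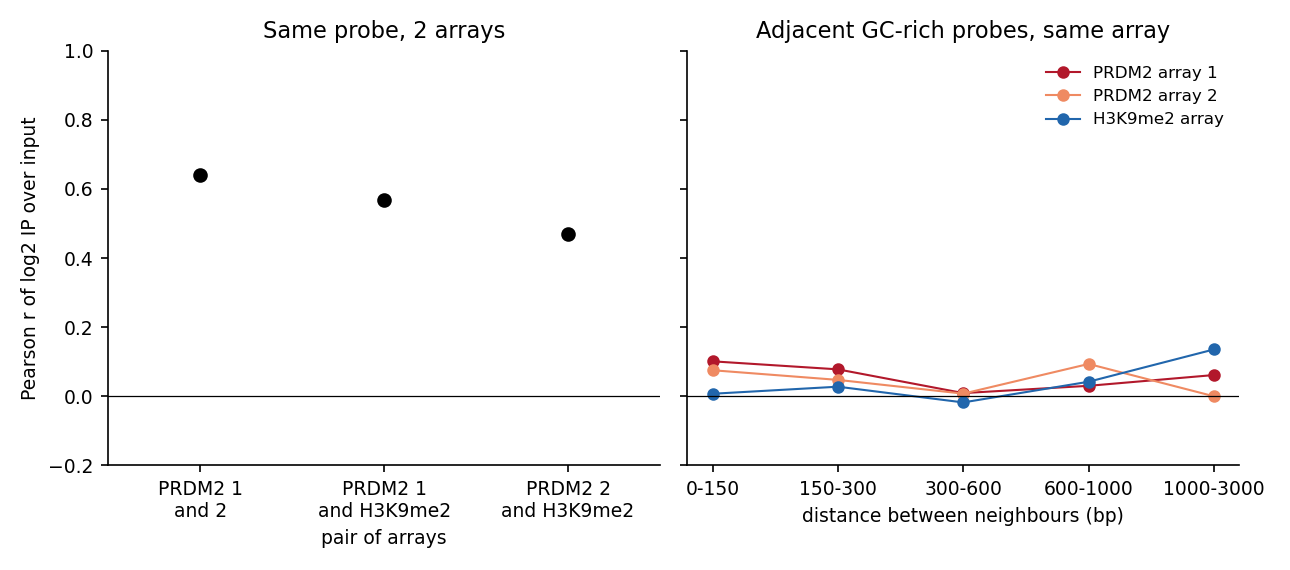
Pearson r of log2 IP over input (vertical axis) for the same GC-rich probe on 2 arrays (left, 9092 probes) and for a GC-rich probe and the next GC-rich probe on 1 array (right) by the distance of their starts in bp. The same probe gives r of 0.471 to 0.641, while neighbours within 150 bp give at most 0.101.

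Neighbouring pairs of other kinds were set beside these. Pairs within 300 bp in which neither probe was GC-rich (165730) correlated at 0.085, 0.149 and 0.108 for PRDM2 array 1, PRDM2 array 2 and H3K9me2, over a much wider range of G+C content, and their G+C contents correlated at 0.474. Pairs in which both probes had 40 to 50% G+C (32407) correlated at 0.029, 0.038 and 0.035. Where 1 of the 2 neighbours was GC-rich, their ratios differed by a median of 2.35, 2.17 and 1.32 log2 on the 3 arrays (11196 pairs), against 1.25, 1.03 and 0.89 where both were. Probes of 40 to 45% G+C within 200 bp of a GC-rich probe had medians of -0.24 and -0.22 for PRDM2 and -0.56 for H3K9me2 (883 probes), against -0.26, -0.29 and -0.50 for those 5000 bp or more away or with none near (33940 probes). Probes of 60 to 65% G+C stood somewhat higher near a GC-rich probe, at 2.87, 2.99 and 1.56 (2536 probes), against 2.45, 2.66 and 1.25 far from one (4745 probes).

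Cul1, the scaffold of SCF ubiquitin ligases, was 1 of the 8 genes with 7 GC-rich probes and shows this within 1 promoter. Its 7 probes, numbered 1 to 7 along the chromosome and with CpG in capitals, were these.
Cul1 probe 1, chr6:47383556-47383600: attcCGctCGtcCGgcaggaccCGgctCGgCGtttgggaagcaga
Cul1 probe 2, chr6:47383778-47383822: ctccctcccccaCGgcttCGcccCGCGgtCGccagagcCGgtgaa
Cul1 probe 3, chr6:47383915-47383959: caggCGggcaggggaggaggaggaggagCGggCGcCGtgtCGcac
Cul1 probe 4, chr6:47384024-47384068: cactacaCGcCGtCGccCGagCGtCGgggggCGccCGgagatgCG
Cul1 probe 5, chr6:47384198-47384242: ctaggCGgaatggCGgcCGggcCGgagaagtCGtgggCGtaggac
Cul1 probe 6, chr6:47384330-47384374: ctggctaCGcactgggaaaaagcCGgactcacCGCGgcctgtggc
Cul1 probe 7, chr6:47384662-47384706: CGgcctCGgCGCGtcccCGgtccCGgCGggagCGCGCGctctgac

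Gaps between these probes ran between 64 and 287 bp. The fourth, with 9 CpG, had 6.50 and 5.65 for PRDM2 and 3.31 for H3K9me2. The fifth, 129 bp further, had 2.18 and 2.14 for PRDM2 and -0.28 for H3K9me2, and the sixth, with 4 CpG, had 0.57 and 1.32 for PRDM2 and 1.02 for H3K9me2. The seventh, with 10 CpG, had 4.58 and 4.98 for PRDM2 and 1.24 for H3K9me2. The first 3 lay between, at 3.08, 3.40 and 3.64 on PRDM2 array 1, 3.28, 3.58 and 2.37 on PRDM2 array 2 and 1.76, 1.23 and 0.82 on the H3K9me2 array. So 1 probe and its neighbour differed by more than 3 log2 on every array, and the arrays shared the peak at the fourth probe. The input signal went the other way, at -1.61, -1.78 and -1.02 at the fourth probe and 2.99, 3.26 and 3.15 at the fifth, and its part in the ratio was not tested.

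The fifth and sixth probes match the RefSeq promoter of Cul1 exactly. It is shown as 250 bases before to 50 after the gene's start on the plus strand of GRCm38.p6, with both probes in capitals, because 78.7% of it is G plus C and it holds 46 CpG.
Cul1 promoter, chr6:47454507-47454806: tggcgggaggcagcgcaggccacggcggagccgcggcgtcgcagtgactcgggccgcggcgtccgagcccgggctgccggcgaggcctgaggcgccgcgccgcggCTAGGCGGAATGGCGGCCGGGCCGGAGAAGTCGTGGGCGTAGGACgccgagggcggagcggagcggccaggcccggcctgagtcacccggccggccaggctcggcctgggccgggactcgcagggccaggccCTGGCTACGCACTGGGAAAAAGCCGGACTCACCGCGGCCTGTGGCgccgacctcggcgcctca

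Dpm1, which encodes the catalytic subunit of dolichol phosphate mannose synthase, also had 7 GC-rich probes by the gene names of the array. Whether these probes lie in Dpm1 itself or in a neighbouring gene was not tested. On PRDM2 array 1 they stood at 3.65, 6.07, 2.58, 4.07, 5.88, 2.59 and 3.99 in order along the chromosome, on PRDM2 array 2 at 5.36, 4.56, 2.06, 3.94, 5.68, 4.06 and 3.82, and on the H3K9me2 array at 1.88, 1.23, 1.16, 3.40, 3.03, 0.72 and 1.46. The third probe was the lowest on both PRDM2 arrays, and the fifth was among the 2 highest on all arrays.

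**Figure D4:**
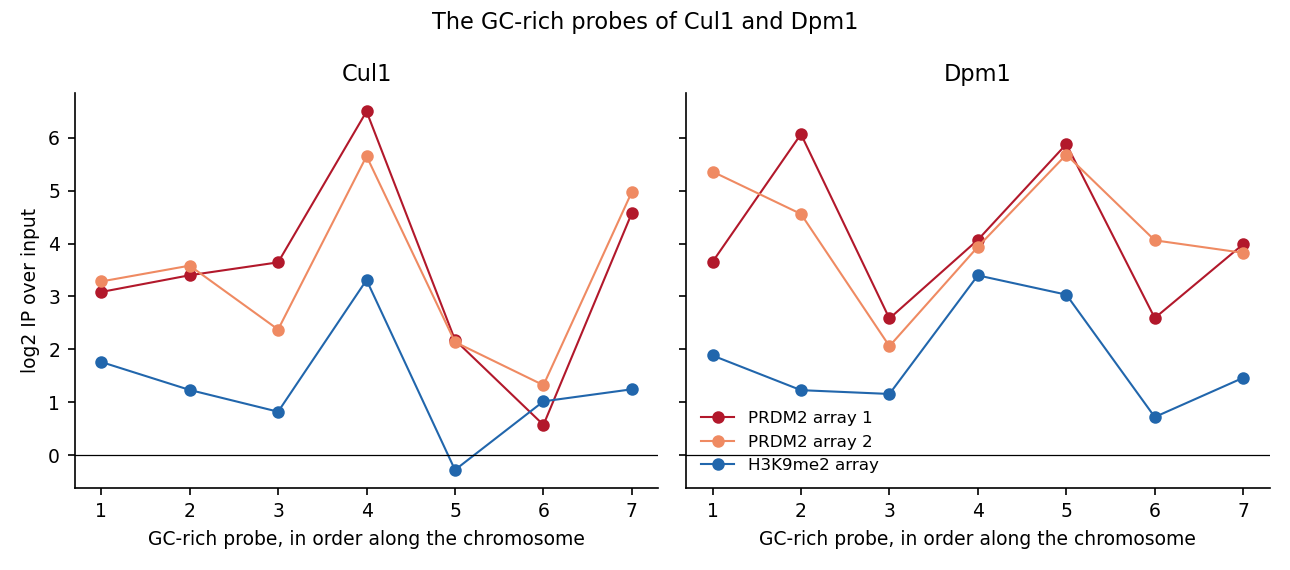
Log2 IP over input (vertical axis) of the 7 GC-rich probes of Cul1 (left) and of Dpm1 (right), in order along the chromosome (horizontal axis), on the 3 arrays. At Cul1 the fourth probe is high on every array (6.50, 5.65 and 3.31) and the fifth is low (2.18, 2.14 and -0.28).

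Averaging over a gene gave little spread between genes. There were 886 genes with at least 3 GC-rich probes measured on every array, of which 63 are predicted genes, and 744 of the 886 names are current symbols, 128 older synonyms of 1 gene and 14 unmatched in RefSeq. The gene mean over GC-rich probes had a median of 3.98 and 3.96 on PRDM2 arrays 1 and 2 and 1.71 on the H3K9me2 array, and ranged between 1.49 and 6.44, 1.92 and 5.90, and -0.10 and 3.46. Probes of 1 gene differed by an SD of 1.32, 1.07 and 0.98, and gene means by an SD of 0.77, 0.63 and 0.52. By a variance split over 3025 probes, differences between genes made up 3.75%, 4.08% and -1.62% of the variance, where a negative share means that genes differed no more than probes within them. Gene means correlated at r = 0.672 between the PRDM2 arrays and at 0.589 and 0.484 with the H3K9me2 array (886 genes, which share the arrays' input and base composition).

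All 886 genes were called above the median probe for PRDM2 over their GC-rich probes (limma adjusted p under 0.05), with 0 below, where 37.4% of the 16481 means of a gene and probe class were called above and 1.05% below. Of the 15595 means over other probes, 33.9% were called above. With normexp limma called 0 of the 886 above (848 at an unadjusted p under 0.05), and with the trend on G+C content removed it called 102 above and 55 below.

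Within the same gene, GC-rich probes stood above the gene's other probes almost without exception. Of 884 genes with at least 3 probes of each class, limma called 882 higher at GC-rich probes for PRDM2 and 0 lower (882 and 0 at an unadjusted p under 0.05), which is the background of 99.8% itself since only these genes could be tested. The difference of GC-rich minus other probes had a median of 3.39 and ranged between 0.84 and 5.48. On the H3K9me2 array it had a median of 2.02 and was above 0 in 881 genes. This difference does not depend on how an array is centred, and limma called 724 of the 884 with normexp and 740 with loess, which also called 11 lower. The 2 genes not called higher were Lass2 (Cers2), given below, and Agpat7 (Lpcat4), which was named after its values were seen and had 2.03 and 2.95 at GC-rich probes, against 1.96 and 1.17 at other probes.

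**Figure D5:**
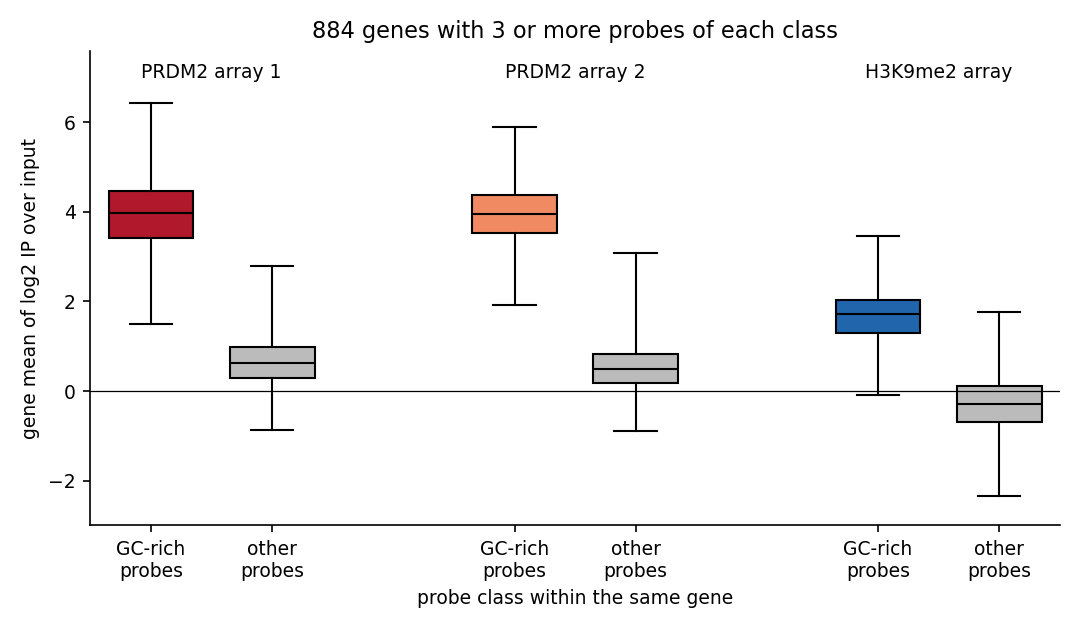
Gene means of log2 IP over input (vertical axis) over GC-rich probes and over the other probes of the same 884 genes, on the 3 arrays; boxes span the quartiles with the median, and whiskers reach the lowest and highest gene. The lower quartile of the GC-rich means, 3.43 and 3.53 on PRDM2 arrays 1 and 2, lies above the highest mean over other probes, 2.80 and 3.09.

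Map4k5, a kinase upstream of JNK signalling, had the largest such difference. Its 3 GC-rich probes averaged 5.91 and 5.33 on PRDM2 arrays 1 and 2, against 0.17 and 0.10 for its other 5 probes, a difference of 5.48 ± 0.36 (SD, n = 2, limma adjusted p = 5.4e-06). Its input was bright at 2 of the 3 GC-rich probes on PRDM2 array 1, and lay at -1.52, -1.29 and -1.53 log2 relative to GC-rich probes of like G+C and CpG content on the 3 arrays. Yeats2, which encodes a reader of acylated histones, followed with 4.68 and 5.41 at GC-rich probes, against -0.33 and -0.46 at other probes. Aof2, now Kdm1a, the lysine demethylase LSD1, had 4.37 and 4.80 at GC-rich probes, against -0.46 and -0.86 at its other 3 probes. Acy1l2 (Pm20d2) and Ube2q2, a ubiquitin-conjugating enzyme, had differences of 5.39 ± 0.63 and 5.27 ± 0.71 (SD, n = 2). In all 5 genes the GC-rich mean was the higher one on each of the 3 arrays.

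The highest PRDM2 means over GC-rich probes belonged to genes of varied function. Differences between genes made up only 3.75% and 4.08% of the variance on the PRDM2 arrays. The rank of a gene, high or low, thus rests largely on the few probes it carries. Hnrpab (now Hnrnpab), an RNA-binding protein, had 6.44 and 5.90 on the PRDM2 arrays and 2.67 on the H3K9me2 array. Ube2o, a large ubiquitin-conjugating enzyme, had 6.32 and 4.83 for PRDM2 and 2.08 for H3K9me2. Tmem56 (Tlcd4) had 5.53 and 5.58 for PRDM2 and 2.24 for H3K9me2, with bright input at 3 of 4 probes on PRDM2 array 1. All of them had an adjusted p of at most 1.4e-09 by limma. Itgb1, the integrin beta 1 subunit that myoblasts use to bind matrix, had 5.54 and 5.41 for PRDM2 and 1.98 for H3K9me2. Nudt3, which cleaves inositol pyrophosphates, Klf3, a zinc finger repressor, and Zfp238 (Zbtb18), a repressor needed in muscle differentiation, averaged 5.42 ± 0.82, 5.39 ± 0.69 and 5.35 ± 0.41 for PRDM2 (SD, n = 2). Srpk1, a kinase of splicing factors, had 5.34 ± 0.34, but its input was bright at only 1 and 2 of 3 probes on PRDM2 arrays 1 and 2. Relative to GC-rich probes of like G+C and CpG content, that input lay at -3.89 and -3.22 log2. Myrip, which links secretory granules to myosin, had 5.32 ± 0.08.

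At the lower end, Actl6a, an actin-like subunit of BAF chromatin remodelers, had 1.49 and 2.44 for PRDM2 and 0.70 for H3K9me2. Stxbp5l, an inhibitor of vesicle fusion, had 1.63 and 2.39 for PRDM2 and 1.29 for H3K9me2. Stard7, Lass2 (Cers2) and Osbpl8, all involved in lipid transfer or synthesis, averaged 2.09 ± 0.20, 2.14 ± 0.37 and 2.25 ± 0.92 for PRDM2 (SD, n = 2). These SDs are between arrays and leave out the spread between probes. The Stard7 probes stood at 0.12, 2.18 and 4.40 on PRDM2 array 1 and at -0.69, 1.08 and 5.47 on array 2. Single probes of Stard7, Lass2 and Osbpl8 had an SD of 2.14, 1.44 and 1.34 on array 1 and 3.17, 1.41 and 1.01 on array 2. Even these gene means were above the median probe (limma adjusted p at most 2.6e-05), and only Lass2 did not pass within the gene, at 0.89 ± 1.04 (adjusted p = 0.058).

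Genes were also named by their CpG count. The genes with most CpG per GC-rich probe were Hnrpab and Itpk1, an inositol phosphate kinase, with 8.33 each, and Crebzf, a partner of bZIP factors, with 8. Itpk1 had 4.97 and 4.59 for PRDM2 and 1.04 for H3K9me2, and Crebzf had 4.31 and 4.97 for PRDM2 and 1.54 for H3K9me2. The 3 with fewest, at 2.00, were Gab1, a docking protein of growth factor receptors (bright input at 2 of 3 probes on both PRDM2 arrays), Gprc5c, an orphan receptor, and Zfp385 (Zfp385a). They averaged 3.12 ± 0.56, 3.41 ± 0.17 and 2.90 ± 0.09 for PRDM2 (SD, n = 2) and stood at 1.00, 1.29 and 1.16 for H3K9me2.

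The PRDM2 and H3K9me2 arrays were compared at the same GC-rich probes. In all 886 genes both PRDM2 arrays lay above the H3K9me2 array, by a median of 2.27 and between 0.72 and 4.04. The spread of H3K9me2 between samples is unknown. With the spread of the PRDM2 pair in its place, limma called 878 genes higher for PRDM2 and 0 lower (882 and 0 at an unadjusted p under 0.05). The background was 38.6% higher and 1.38% lower over the same 16481 means. This contrast rests on the scale of each array: limma called 0 of the 886 higher with normexp or with the trend on G+C content removed (unadjusted p under 0.05 in 16 and 72 genes higher for PRDM2 and in 11 and 16 genes lower), 59 higher and 19 lower with each array centred on its median GC-rich probe, and 438 higher with loess.

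The largest differences were at Srpk1 (4.04) and Map4k5 (4.02), followed by Itpk1 (3.74), L3mbtl3, a reader of methylated lysines (3.73), and Hic1, a transcriptional repressor that is often silenced in tumours (3.65). L3mbtl3 had 5.21 and 5.08 for PRDM2 and 1.42 for H3K9me2, with bright input at 2 of its 3 probes. Hic1 had 4.66 and 4.03 for PRDM2 and 0.69 for H3K9me2. No gene had both PRDM2 arrays below the H3K9me2 array.

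H3K9me2 values have no replicate and are given as measured. On this array genes differed no more than probes within them (a share of -1.62%), so the ranks below describe sets of probes rather than genes. The highest gene means were those of Mxd4, a partner of Max that opposes Myc, at 3.46, Usp10, a deubiquitinase, at 3.27, Crtap, needed for collagen hydroxylation, at 3.09 and Unc5b, a netrin receptor, at 2.95. Elavl2, an RNA-binding protein of neurons, Gfod1, Acot7, an acyl-CoA thioesterase (bright input at 2 of 3 probes on PRDM2 array 1), and Aff4, the scaffold of the super elongation complex, followed at 2.86, 2.82, 2.81 and 2.78. Their PRDM2 means were above the median too, at 5.11 ± 0.93 for Mxd4, 4.65 ± 0.37 for Usp10, 5.31 ± 0.55 for Crtap (bright input at 2 of 3 probes) and 4.84 ± 0.03 for Unc5b (SD, n = 2). The Usp10 probe shown above stood at 3.66 on the H3K9me2 array.

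The lowest H3K9me2 means were those of Dut, which removes dUTP before DNA synthesis, at -0.10, Ksr2, a scaffold of the MAP kinase cascade, at -0.09, Crtc1, a CREB coactivator, at 0.07, Zfp629 at 0.20 and Dusp7, a phosphatase of ERK, at 0.28. For PRDM2 the same genes averaged 2.70 ± 0.61, 2.54 ± 0.37, 3.02 ± 0.45, 3.29 ± 0.03 and 3.82 ± 0.20 (SD, n = 2). Within these genes the H3K9me2 values of single probes had an SD of 2.82, 1.93, 2.60, 1.28 and 0.89. At Dut the probes stood at 1.26, -3.33 and 1.79, at Ksr2 at -0.02, 1.58, 0.89 and -2.80, and at Crtc1 at -0.40, -2.26 and 2.87. So 1 very low probe weighed on the mean of each of Dut, Ksr2 and Crtc1. The Crtc1 probe shown above stood at 2.37 and 3.53 for PRDM2 and at -2.26 for H3K9me2, although its input was bright on all arrays, at 2.76, 2.28 and 2.88 log2 above the median probe.

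Gene groups differed in how many GC-rich probes they had, and their median PRDM2 mean ran between 3.11 in myogenic factors and 4.87 in imprinted genes, over 2 and 3 genes, with no test between groups. Taken over every GC-rich probe of those lists (19 and 23 probes), the order was the reverse. The PRDM2 probe median was then 4.03 in myogenic factors and 3.63 in imprinted genes, against 3.84 for all GC-rich probes. Over all autosomal probes 3.995% were very GC-rich. The share was 9.31% in voltage-gated ion channel genes, 8.98% in forkhead, Sox, T-box, GATA, Zic and Klf factors, 8.39% in cyclins, CDKs and their inhibitors and 8.29% in TGF-beta and BMP pathway genes. It was 3.83% in Hox genes, 3.67% in cytosolic ribosomal protein genes and 3.37% in myogenic factors. Of 833 olfactory receptor genes 1 had a GC-rich probe, and none of the 36 canonical histone genes and 109 vomeronasal receptor genes had any. In each group below, every gene with at least 3 GC-rich probes was among the 886 called above the median probe for PRDM2, as all such genes were. Bright input is not given for every gene named below, so its absence does not mean that all probes had it. On PRDM2 array 1 the lowest single-probe input was -5.49 log2 at Smad2, -5.53 at Kcnc1 and -4.80 at Pde3b. It was -4.72 at Klf2, -4.68 at Foxd2 and -4.10 at Ppm1a.

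Among developmental regulators, 3 of 32 Hox genes had at least 3 GC-rich probes. Hoxa13, which patterns digits and the hindgut, had 4.96 and 4.68 for PRDM2 and 2.02 for H3K9me2, Hoxd9 4.62 and 4.05 for PRDM2 and 1.79 for H3K9me2, and Hoxd11 4.31 and 3.92 for PRDM2 and 1.31 for H3K9me2. The 12 of 73 other homeobox factors had a median PRDM2 mean of 3.72, with 4.45 ± 0.19 at Irx2 and 4.12 ± 0.26 at Gbx2 (SD, n = 2). The 20 of 68 forkhead, Sox, T-box, GATA, Zic and Klf factors had a median of 3.85, with 4.38 ± 0.17 at Foxd2, 4.18 ± 0.44 at Klf5 and 3.79 ± 0.05 at Foxe1 (SD, n = 2), where input was bright at 3 and 4 of 6 probes on PRDM2 arrays 1 and 2. The median over all 886 genes was 3.98.

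Of the myogenic factors 2 of 28 had at least 3 GC-rich probes. Lbx1, which guides migrating muscle precursors, had 3.86 and 3.39 for PRDM2 and 2.20 for H3K9me2. Mef2a, a muscle transcription factor, had 3.27 and 1.92 for PRDM2 and 0.77 for H3K9me2, and its value on PRDM2 array 2 was the lowest of the 886 genes there. Of the cell cycle genes 5 of 31 qualified, among them Cdkn1b, the cyclin-dependent kinase inhibitor p27, with 4.95 and 3.74 for PRDM2 and 1.86 for H3K9me2. Ccne1, cyclin E1, had 3.78 and 4.17 for PRDM2 and 1.63 for H3K9me2, and E2f7, a repressor of E2F targets, had 3.63 and 4.14 for PRDM2 and 1.27 for H3K9me2.

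Among genes that act on chromatin, 2 of 14 H3K9 methyltransferase, demethylase and PRDM genes qualified. Ehmt1, the H3K9 methyltransferase GLP, had 4.80 and 4.35 for PRDM2 and 1.45 for H3K9me2 at GC-rich probes, against 1.14, 0.68 and -0.13 at its other 7 probes. Prdm16, known for its role in brown fat, had 3.59, 3.71 and 1.70 at GC-rich probes, against 2.25, 1.88 and 0.90 at its other 17. Of 27 Polycomb genes 2 qualified: Scmh1 averaged 4.22 ± 0.02 for PRDM2 and Rnf2, the E3 ligase of Polycomb repressive complex 1, 3.43 ± 0.24 (SD, n = 2). The highest Scmh1 probe, at 6.12 and 5.70 for PRDM2, had input at only -4.74 and -4.25 log2 relative to the median probe.

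Of 45 Wnt pathway genes 7 qualified, with PRDM2 means of 4.70 ± 0.17 at Wnt4, 3.90 ± 0.26 at Wnt6 and 3.86 ± 0.23 at Wnt7b (SD, n = 2), and H3K9me2 at 2.67, 2.12 and 1.81. Of 42 TGF-beta and BMP genes 7 qualified, with 4.47 ± 0.35 at Smad2, a mediator of TGF-beta, 4.17 ± 0.16 at Smad7, its inhibitor, and 3.35 ± 0.19 at the ligand gene Bmp6 (SD, n = 2). Of 28 immediate early genes 8 qualified, with 3.90 ± 0.34 at Klf2, 3.66 ± 0.13 at Ier5 and 3.50 ± 0.45 at Egr1 (SD, n = 2).

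Imprinted genes had 3 of 27 that qualified. Igf2, the growth factor gene expressed only from the paternal copy, had 5.13 and 4.61 for PRDM2 and 2.77 for H3K9me2, with bright input at 2 of 3 probes on PRDM2 array 1. Ppp1r9a had 4.68 and 5.35 for PRDM2 and 2.25 for H3K9me2, and Grb10, an inhibitor of insulin signalling, 3.48 and 3.79 for PRDM2 and 1.00 for H3K9me2. The Kv potassium channel genes Kcnc1 and Kcnc4 averaged 4.35 ± 0.20 and 3.54 ± 0.28 for PRDM2 (SD, n = 2). Rps19, the only one of 72 ribosomal protein genes with at least 3 GC-rich probes, had 3.68 and 4.19 for PRDM2 and 0.97 for H3K9me2. Of 32 extracellular matrix genes 2 qualified, Lamc1, a laminin chain, at 3.79 ± 0.17 and Col2a1, cartilage collagen, at 2.56 ± 1.06 (SD, n = 2).

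The remaining genes named for their number of GC-rich probes had 6 or 7. Ppm1a, a phosphatase of stress kinases, averaged 4.14 ± 0.09 for PRDM2, Cnnm1 4.10 ± 0.26, Rims2, of the synaptic active zone, 4.07 ± 0.11 and Pde3b, a phosphodiesterase of insulin action, 3.98 ± 0.27 (SD, n = 2). Their H3K9me2 means were 2.09, 2.52, 1.24 and 1.58. With 5 or more GC-rich probes required, 69 genes were left, and limma called all 69 above the median probe, above their other probes and higher for PRDM2 than for H3K9me2.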

How the data were processed

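DNA of 2 PRDM2 and 1 H3K9me2 immunoprecipitations of C2C12 cells was measured on 2-colour Agilent arrays, with IP in red and input in green. Feature Extraction 10.5.1.1 made the deposited processed intensities, per the file headers, by background subtraction, detrending, linear dye normalization and surrogates for dim spots. The deposited mean and local background intensities were raw, per the file headers, and used for normexp. The log10 ratios in the deposited files, of red over green processed signal, served as a check. The deposited flags marked control spots, outliers and spots well above background. The authors' deposited value table served as an alternative. The deposited table was read as log2 of IP over input as processed by the authors, by steps that its header does not state, since its columns correlated at 0.965, 0.940 and 0.972 with those ratios and gave the same GC-rich difference for PRDM2 (3.90). Its medians were 0.124, 0.103 and 0.278, and its normalization and centring are unknown.

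From the processed signals, log2 of red over green was computed without the outlier spots (773, 107 and 218), and the median over probes outside the controls (-0.91, -0.80 and -0.27) was subtracted from every array. Ratios were tested with limma 3.58.1 in R 4.3.3 (lmFit, eBayes) per probe, and per gene as the mean over at least 3 probes of a class, with Benjamini-Hochberg adjustment over all probes or genes tested and a threshold of 0.05. A gene was split where probes lay over 10000 bp apart. The fit was tested on simulated data. Descriptions used Python 3.11.15 with pandas 2.3.3 and numpy 2.4.6, and figures matplotlib 3.10.9. CpG and GpC were counted in the probe sequence. Neighbours were consecutive GC-rich probes that did not overlap, at the distance of their starts. Sequences of promoters, names and symbols came from RefSeq (GRCm38.p6), and gene names otherwise stand as on the array.

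Named genes were the 10 highest and 5 lowest by PRDM2, the 8 highest and 5 lowest by H3K9me2, the 5 largest differences each way between antibodies and within genes (none was lower), the 8 with most GC-rich probes, the 3 with most and the 3 with fewest CpG per probe, and up to 3 members of each list. Of the genes this rule named, 2 are not reported here. The members, lists and tests were chosen with earlier results of these data known. The alternatives were normexp (offset 50), loess, the value table, bright input only, 70% G+C, the trend on G+C content removed, another centring, 5 probes per gene, the median over probes, other CpG classes, pairs within 600 bp and leaving out a PRDM2 array. Probes on sex chromosomes entered the fits but are not described.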

Additional observations from a re-analysis of the deposited data

How the results depend on the processing

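PRDM2 and H3K9me2 medians stayed higher at GC-rich than at other probes with normexp, loess, the value table, bright input only and 70% G+C; this difference was not computed with the G+C trend removed. For PRDM2 the difference was 1.65 with normexp, 1.54 with loess, 3.86 with bright input only and 4.21 at 70% G+C, and it was 3.88 to 3.91 with either PRDM2 array left out. For H3K9me2 it was 1.89 with normexp, 0.80 with loess, 1.90 with the authors' value table and 1.87 with bright input. Probes called above the median were 0 with normexp, the value table, bright input or the G+C trend removed (unadjusted counts stand in the report), and 910 with each array centred on its median GC-rich probe; probes called below were 51 with loess and 1055 with that centring. Genes called above were 0 with normexp, 102 with the trend removed, 243 with that centring, 258 at 70% G+C and 69 with 5 or more probes, the last 2 being all genes left to test. Genes called below were 1 with loess, 55 with the trend removed and 143 with that centring. Within genes, 258 and 69 were called higher at 70% G+C and with 5 or more probes, again all genes left, and 11 lower with loess. This within-gene contrast was not run with the trend removed. Genes higher for PRDM2 than H3K9me2 were 0 with normexp and with the trend removed, 438 with loess, 59 with that centring (19 lower), 558 with the median over probes, and all 258 and 69 with the stricter limits. The PRDM2 difference of many minus few CpG was 0.74 with normexp, 2.92 with loess, 1.38 with the value table, 1.27 with bright input, 1.65 for at most 1 against 8 or more CpG, and 1.36 to 1.37 with an array left out. For H3K9me2 it was -0.73 with normexp and 1.68 with loess. The PRDM2 correlation of neighbours was 0.055 with normexp, 0.065 with the value table, 0.059 within 600 bp, and 0.069 to 0.088 with an array left out; that of H3K9me2, 0.017 as reported, was 0.056 with loess and 0.00838 within 600 bp. Except where fewer genes were left to test, the cause of these changes was not tested. No paired analysis was possible because the only H3K9me2 array carries no replicate number in its labels.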

Other observations

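The GC box GGGCGG, a site of Sp and KLF factors, was found on either strand in 13.7% of very GC-rich probes and in 1.07% of all autosomal probes. Probes chosen for G plus C hold letters made only of G and C more often by that choice. No share expected from base composition was computed. GC-rich probes with it had a PRDM2 median of 4.05 and 4.13, against 3.76 and 3.78 for those without it, and an H3K9me2 median of 1.57, against 1.67. Their G+C content was higher too, at a median of 73.3% against 68.9%, and so was their input, at 1.13 and 1.07 against 0.41 and 0.39 log2 on the PRDM2 arrays. The letters CAGCTG, an E-box of MyoD type, were in 2.94% of very GC-rich probes and in 1.75% of all autosomal probes, and those GC-rich probes had a PRDM2 median of 3.51 and 3.64, against 3.81 and 3.85 for those without them. Their H3K9me2 median was lower too, at 1.31 against 1.67. So were their median G+C content, at 68.9% against 71.1%, and their median CpG count, at 4 against 5.

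The strand that held the G bases made less difference to the ratio than to the signal. GC-rich probes with at least 20 percentage points more G than C (901) had a PRDM2 median of 4.12 and 3.93 and those with as much more C than G (722) of 4.01 and 3.8, against 3.62 and 3.77 where G and C were within 5 points (2824). Their input lay at 1.58 and 1.73, 2.61 and 2.66, and -0.11 and -0.18 log2 on the PRDM2 arrays. The classes also differed in base composition. Median G+C content was 71.1% in both skewed classes and 68.9% where G and C were within 5 points, and the median CpG count was 4 and 5.

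Of the 9117 probes, 1874 match a RefSeq promoter window exactly, each on the chromosome the array gives. Among those in 1 window only, probes centred between 250 and 150 bases before the gene's start had a PRDM2 median of 3.88 and 3.84 (332 probes), those between 50 before and 50 after it 3.79 and 3.93 (683 probes), and the 7243 probes outside all windows 3.81 and 3.84. The H3K9me2 medians were 1.74, 1.62 and 1.66.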
